A study of Mus musculus with 14 samples.

Results

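The genes of the noncollagenous extracellular matrix and of its remodelling were examined in control and knockout mouse fetal ovaries. The knockout was of Coup-tfII, the nuclear receptor encoded by Nr2f2. The set has 45 genes, namely 9 of the small leucine-rich and other proteoglycan group, 17 of the elastic fibre, 7 adhesive glycoproteins, 5 basement membrane genes, and 7 proteases and protease inhibitors. A gene was taken through the probe sets that carry its symbol and no other in the platform annotation. Of the 45 genes, 42 had such a probe set, out of 18193 genes on the array, and 41 lay above the filter on dim genes, out of 12406 genes tested. Fbn1, Efemp2 and Loxl2 were not analysed here. Mfap5, a microfibril protein, lay below the filter and was not tested, with 58.0, 69.1 and 73.1 in E14.5 knockout ovaries against 38.7, 52.5 and 41.7 in E14.5 control ovaries, while its E16.5 values were 18.4 to 299 in knockout ovaries, with the highest on replicate 1, and 15.0 to 39.0 in control ovaries.

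Whole fetal ovaries were profiled on 14 Affymetrix arrays, with 3 knockout and 3 control arrays at E14.5 and 4 knockout and 4 control arrays at E16.5, all called biological replicates in the labels. Knockout embryos carried WT1-CreERT2, a recombinase that tamoxifen switches on in cells that use the Wt1 promoter, and a floxed Coup-tfII gene on both chromosomes. Every dam had received tamoxifen (2 mg per 10 g of body weight) at E11.5 and again at E12.5, so control and knockout ovaries shared the drug exposure. All embryos were of a mixed C57BL/6, Swiss Webster and B6129SF1/J background. The labels call the other genotype control, and the sources used here do not give its Cre and floxed alleles. Signals are MAS5 intensities in arbitrary units, scaled so that the trimmed mean of every array was 500. A signal was compared between arrays for the same probe set and not between genes. Log2 changes are differences of log2(signal + 16), given with the standard error (SE), and were tested with limma, with p adjusted by the Benjamini-Hochberg method over all 12406 genes and a threshold of 0.05.

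Small leucine-rich proteoglycans such as decorin and lumican bind collagen fibrils and set their spacing, while elastic fibres form when elastin is laid on a scaffold of fibrillins, fibulins and microfibril proteins and is cross-linked by lysyl oxidases. Basement membranes are sheets of laminin, nidogen, type IV collagen and perlecan that underlie epithelia and vessels. Matrix metalloproteinases and ADAMTS enzymes cut these proteins, and tissue inhibitors of metalloproteinases (TIMPs) hold the enzymes in check; in the fetal ovary much of the matrix lies in the stroma around the ovigerous cords.

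Foxl2, a pre-granulosa cell gene, lay between 1152 and 2695 over the 14 arrays, and the 6 germ cell markers summed to 38918 to 57614 on the E14.5 arrays and 9665 to 12967 on those of E16.5, so the labelled tissue carried its defining genes. The brightest Nr2f2 probe set read 155, 252 and 267 in E14.5 knockout ovaries, against 217, 493 and 422 in E14.5 control ovaries. The array labelled E14.5 control replicate 1 therefore lay among the knockout arrays, and on another Nr2f2 probe set it read 19.3, below the 34.6 to 79.1 of the knockouts, whereas on a further probe set it read 268, above the 161 to 259 of the knockouts. The E14.5 log2 change of the brightest probe set was -0.67 ± 0.25 (limma adjusted p = 0.479). The other Nr2f2 probe sets above the filter had -0.96 to -0.46, with limma adjusted p of 0.556 to 0.685. A fall of Nr2f2 was therefore not shown by the test at E14.5. At E16.5 the same brightest probe set read 2053 to 3359 in knockout ovaries and 3819 to 4950 in control ovaries (log2 change -0.79 ± 0.22, limma adjusted p = 0.0873). The probe set with 19.3 read 270 to 409 in E16.5 knockout ovaries and 1797 to 2227 in control ovaries (-2.57 ± 0.46, limma adjusted p = 0.0123). The one with 268 read 226 to 523 against 896 to 1064 (-1.60 ± 0.22, limma adjusted p = 0.00297). A dim Nr2f2 probe set leaned the other way, with 96.7 to 128 against 78.8 to 112. Which Nr2f2 probe sets lie inside the deleted part is unknown here, and one outside it would not check the deletion. Among the knockouts, E14.5 knockout replicate 2 and E16.5 knockout replicate 1 stood apart for the matrix genes. E16.5 knockout replicates 1 and 4 also had the hybridization control bioB at signals of 9857 and 16120, against 3719 to 4439 in the E16.5 controls. The Gapdh 3′ minus 5′ difference, a sign of RNA quality, was 0.94 to 1.63 in E16.5 knockout ovaries and 1.67 to 1.82 in E16.5 control ovaries. The part of these array differences in the results below was not tested. Results without the arrays in question are given for some genes and counts only.

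Most matrix genes had a positive log2 change in knockout ovaries at both stages, and 4 passed the test at E16.5. All 4 calls were lost without E16.5 knockout replicate 1, and also with bioB or with the Gapdh difference as a covariate. The Gapdh covariate also took the E16.5 median change of the members to -0.0038, against 0.22 without it, and left the E14.5 median at 0.36. The Gapdh difference did not overlap between E16.5 knockout and control arrays, so this covariate and genotype cannot be fully separated at that stage. Calls over all genes at E16.5 also fell with either covariate, so the loss was not particular to these 4 genes. At E16.5, Dpt (dermatopontin), Efemp1 (fibulin-3), Timp1 and Hspg2 (perlecan) rose in knockout ovaries and 0 members fell. The 4 genes are 9.76% of the 41 members tested, against 1.42% of all genes tested that were called in either direction, 0.967% called higher and 0.451% called lower. At E14.5, 0 of the 41 members passed by limma, and 0.0403% of all genes did. With unadjusted p under 0.05 there were 13 members at E14.5, each with a positive change, which is 31.7% of the members against 8.55% of all genes. At E16.5 there were 10 such members, or 24.4%, against 18.3% of all genes. Over the 90 probe sets of the members above the filter, 0 passed at E14.5 (0.00859% of all probe sets) and 4 at E16.5 (1.02% of all probe sets). The median log2 change was 0.37 over the members and 0.03 over all genes at E14.5, and 0.22 over the members and 0.05 over all genes at E16.5. Positive changes were seen for 38 of 41 members at E14.5 (92.7%, against 55.3% of all genes) and for 29 of 41 at E16.5 (70.7%, against 58.9% of all genes). In whole ovaries, more RNA per cell and more cells of a type that makes the RNA cannot be told apart.

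All knockout arrays lay above all control arrays for 10 members at E14.5, which is 24.4% of the members against 7.84% of all genes. These were Dpt, Dcn, Fmod, Vcan, Efemp1, Eln, Fbln2, Ltbp1, Tnc and Timp1, and 0 members had all knockout arrays below all controls, against 4.9% of all genes. At E16.5 the arrays did not overlap for 6 members, Aspn, Prelp, Efemp1, Eln, Hspg2 and Timp1, which is 14.6% of the members against 6.22% of all genes, and 0 members lay wholly below, against 4.22% of all genes. Efemp1, Eln and Timp1 were on both lists. Both lists take the probe set used in the gene test, and on another Thbs1 probe set all E16.5 knockout arrays lay below all controls. The plot of log2 changes by class sets the stages side by side.

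**Figure D1:**
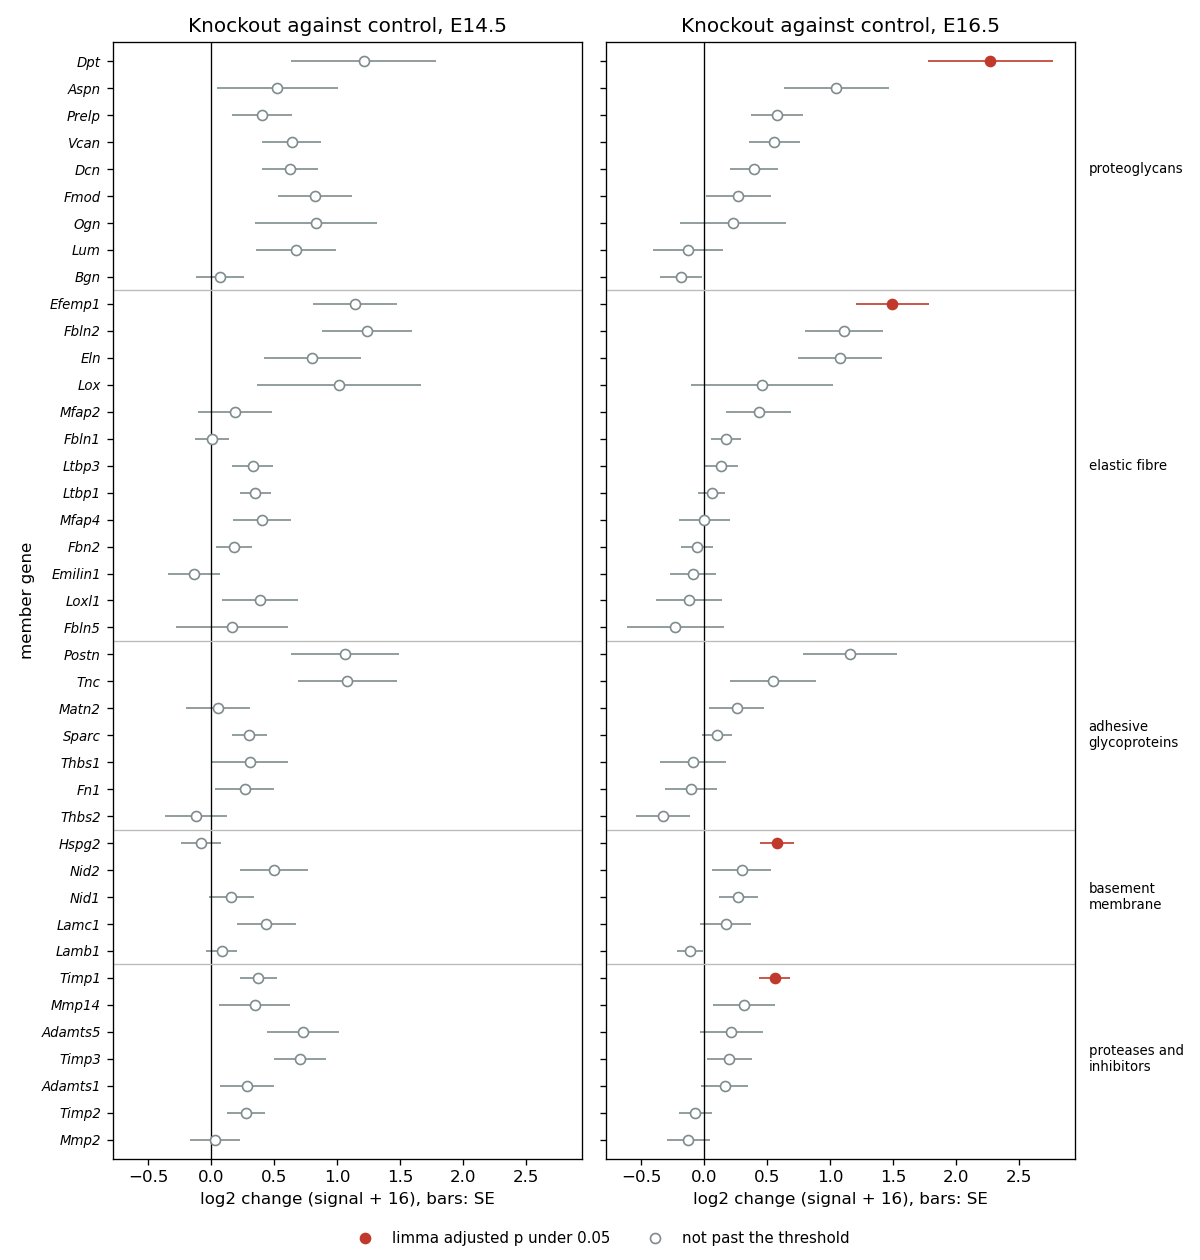
Log2 change of signal + 16 in knockout against control ovaries (horizontal axis) for each of the 41 members tested, grouped by class down the page, at E14.5 (left panel, 3 arrays a group) and E16.5 (right panel, 4 arrays a group). Points are limma estimates, bars are standard errors, and filled points mark the 4 genes with a limma adjusted p under 0.05 at E16.5, Dpt, Efemp1, Hspg2 and Timp1; most points at E14.5 lie to the right of 0 but none is filled.

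The 250 bases before the transcription start of the 4 genes that rose are shown, because they are the members past the test and because Coup-tfII is known to bind direct and inverted repeats of the half-site AGGTCA. Sequences are those of RefSeq on GRCm38.p6, plus strand, 5′ to 3′, and 29 of the 45 members had 37 promoters in the table. Capitals mark matches, on either strand, to AGGTCA, to GGGCGG (the GC box), to TATAAA (the TATA box) or to TGANTCA (the frame of the AP-1 motif, with any base at its centre).
Dpt, chr1:164796413-164796662: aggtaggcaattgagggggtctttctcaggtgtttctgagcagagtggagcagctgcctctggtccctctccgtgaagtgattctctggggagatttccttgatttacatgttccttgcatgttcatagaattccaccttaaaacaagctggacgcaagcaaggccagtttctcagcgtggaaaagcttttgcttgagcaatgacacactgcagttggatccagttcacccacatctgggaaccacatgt
Efemp1, chr11:28852955-28853204: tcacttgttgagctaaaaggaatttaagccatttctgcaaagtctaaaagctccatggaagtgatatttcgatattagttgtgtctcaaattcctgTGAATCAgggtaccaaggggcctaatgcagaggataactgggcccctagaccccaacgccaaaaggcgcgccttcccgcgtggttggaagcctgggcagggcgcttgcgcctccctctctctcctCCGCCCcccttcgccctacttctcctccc
Hspg2, chr4:137468553-137468802: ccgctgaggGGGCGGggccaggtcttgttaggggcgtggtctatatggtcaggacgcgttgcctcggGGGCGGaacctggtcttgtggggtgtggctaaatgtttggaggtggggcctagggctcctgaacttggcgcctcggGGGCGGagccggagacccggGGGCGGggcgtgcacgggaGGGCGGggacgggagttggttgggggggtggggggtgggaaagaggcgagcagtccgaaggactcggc
Timp1, chrX:20869916-20870165: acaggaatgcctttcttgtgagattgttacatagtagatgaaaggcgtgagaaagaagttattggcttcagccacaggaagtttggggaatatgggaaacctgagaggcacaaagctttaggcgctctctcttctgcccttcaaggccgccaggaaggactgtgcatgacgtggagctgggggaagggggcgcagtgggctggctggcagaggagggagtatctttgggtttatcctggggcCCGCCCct
None of the 4 windows held AGGTCA or TATAAA, and no 2 marked matches overlapped. AGGTCA was found in 4 of the 37 member promoters (10.8%), against 4607 of 32851 RefSeq promoters of the same length. Hspg2 held 5 GC boxes, and Efemp1 and Timp1 held 1 each. The GC box was found in 56.8% of member promoters and in 32.7% of all promoters. TGANTCA was found once in Efemp1, in 2.7% of member promoters and in 6.75% of all promoters. TATAAA was found in 18.9% of member promoters and in 12.4% of all promoters.

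Among the proteoglycans and their partners, Dpt changed most. Dermatopontin is a small matrix protein that binds decorin and takes part in collagen fibril assembly. Its signals were 1915, 574, 551 and 189 in E16.5 knockout ovaries, against 92.2, 228, 72.0 and 89.3 in E16.5 control ovaries. Only knockout replicate 4 lay below a control array, control replicate 2, so the groups overlapped by that pair. The log2 change was 2.27 ± 0.50 (SE, n = 4 each, limma adjusted p = 0.0311), and without knockout replicate 1 it was 1.71 ± 0.42 (limma adjusted p = 0.0873). At E14.5 the signals were 185, 404 and 120 in knockout ovaries, against 88.0, 83.8 and 73.2 in control ovaries. Every E14.5 knockout array was above every control, and the log2 change of 1.21 ± 0.58 (SE, n = 3 each) did not pass (limma adjusted p = 0.585).

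The other 8 genes of the proteoglycan group had log2 changes of 0.07 (Bgn, biglycan) to 0.83 (Ogn, osteoglycin) at E14.5, and of -0.19 (Bgn) to 1.05 (Aspn, asporin) at E16.5. Aspn, a collagen-binding leucine-rich protein, read 1092, 236, 251 and 193 in E16.5 knockout ovaries, against 167, 170, 146 and 139 in control ovaries. The groups did not overlap, but knockout replicate 1 was far above the rest, and the log2 change of 1.05 ± 0.42 did not pass (limma adjusted p = 0.195). Prelp, which anchors basement membranes to collagen, read 152, 116, 174 and 210 in E16.5 knockout ovaries, against 95.3, 111, 110 and 92.8 in control ovaries, again without overlap (log2 change 0.58 ± 0.21, limma adjusted p = 0.158). Dcn (decorin) read 7947, 8154 and 5925 in E14.5 knockout ovaries, against 5368, 4410 and 4402 in control ovaries. The E14.5 groups of Dcn did not overlap, whereas at E16.5 they did, with 6752, 5186, 6413 and 3178 in knockout ovaries and 4575, 3897, 3176 and 4230 in control ovaries.

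Vcan (versican), a large hyaluronan-binding proteoglycan, had 8 probe sets, of which 4 were above the filter. The brightest read 686, 1088 and 775 in E14.5 knockout ovaries, against 623, 434 and 549 in control ovaries, with no overlap. At E16.5 it read 1386, 1104, 1091 and 642 in knockout ovaries, against 596, 817, 676 and 680 in control ovaries, and only knockout replicate 4 fell inside the control range. Its E16.5 log2 change was 0.55 ± 0.20 (limma adjusted p = 0.161), and without knockout replicate 4 Vcan passed. The other 3 probe sets had E16.5 log2 changes of 0.65, 0.71 and 1.08, with limma adjusted p of 0.101, 0.0696 and 0.0511 when all probe sets were fitted. Fmod (fibromodulin) had 6 probe sets above the filter, all with positive changes, which were 0.59 to 1.44 at the earlier stage and 0.27 to 0.86 at the later one. Over the 9 genes, the median log2 change was 0.64 at E14.5 and 0.39 at E16.5.

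**Figure D2:**
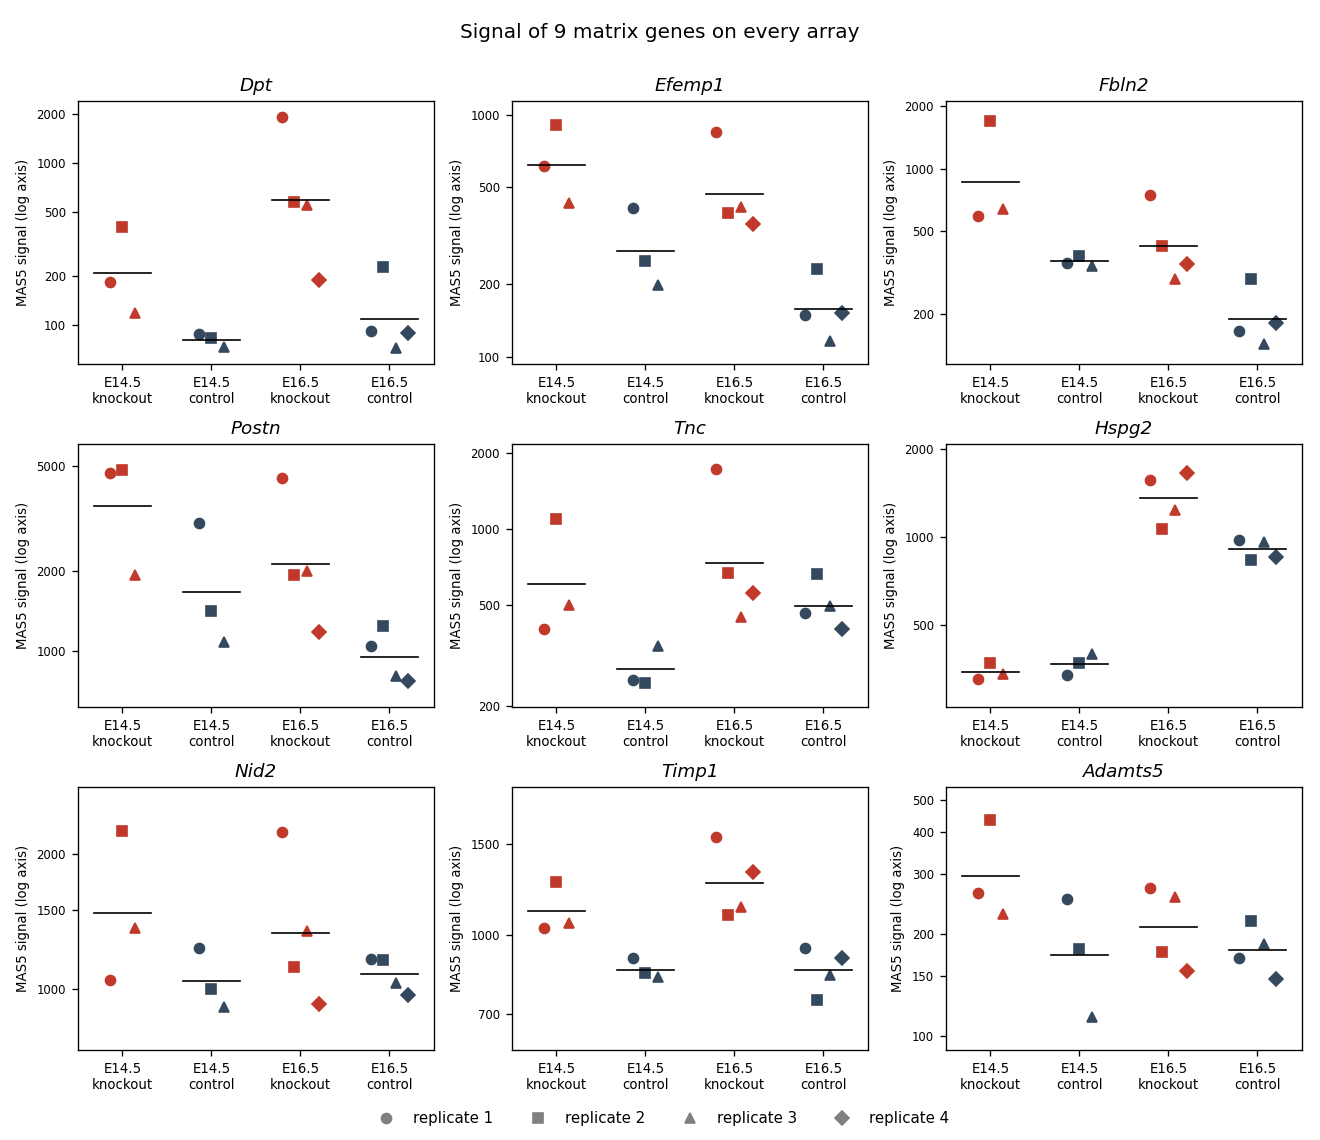
MAS5 signal (vertical log axis, arbitrary units) of 9 matrix genes on each of the 14 arrays, with knockout arrays in red and control arrays in dark blue at each stage. Each point is 1 array, the marker shape gives the replicate number, and horizontal lines are group means taken on the log2(signal + 16) scale; E14.5 knockout replicate 2 and E16.5 knockout replicate 1 are the highest points of their stage for Dpt, Efemp1, Fbln2, Postn, Tnc, Nid2, Timp1 and Adamts5.

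In the elastic fibre class, the fibulins Efemp1 and Fbln2 and elastin itself had the largest E16.5 changes, and of the 13 genes tested only Efemp1 passed, at E16.5. Efemp1 encodes fibulin-3, a short fibulin of elastic tissue and basement membranes. Its signals were 846, 393, 414 and 351 in E16.5 knockout ovaries, against 148, 229, 116 and 151 in E16.5 control ovaries. Every knockout array was above every control, and the log2 change was 1.49 ± 0.29 (SE, n = 4 each, limma adjusted p = 0.0158). Leaving out knockout replicate 1 gave 1.22 ± 0.27 (limma adjusted p = 0.0556). At E14.5 Efemp1 read 612, 909 and 430 in knockout ovaries, against 412, 249 and 197 in control ovaries. These groups did not overlap either, and the log2 change of 1.14 ± 0.33 did not pass (limma adjusted p = 0.320). Its highest E14.5 control value came from the array labelled control replicate 1, and without that array the change was 1.42 ± 0.35 (limma adjusted p = 0.176).

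Fbln2 (fibulin-2), which bridges fibrillin, elastin and basement membrane proteins, had the largest E14.5 change of the 41 members. It read 595, 1689 and 640 in E14.5 knockout ovaries, against 353, 382 and 342 in control ovaries. The groups were apart, and the log2 change of 1.23 ± 0.36 did not pass (limma adjusted p = 0.320). At E16.5 Fbln2 read 747, 427, 294 and 347 in knockout ovaries, against 165, 296, 144 and 180 in control ovaries. Knockout replicate 3 and control replicate 2 were at nearly the same level, and the log2 change was 1.11 ± 0.31 (limma adjusted p = 0.0769).

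Eln (elastin) read 541, 1471 and 472 in E14.5 knockout ovaries, against 374, 445 and 407 in control ovaries. At E16.5 it read 5104, 1400, 1882 and 2098 in knockout ovaries, against 1222, 1007, 974 and 1156 in control ovaries. Neither stage had any overlap, and the log2 changes of 0.80 ± 0.39 and 1.08 ± 0.33 did not pass (limma adjusted p = 0.592 and 0.116). Lox (lysyl oxidase), which cross-links elastin and collagen, depended on single arrays, with 780, 4898 and 497 in E14.5 knockout ovaries against 425, 682 and 777 in control ovaries. At E16.5 Lox read 3016, 851, 1101 and 420 in knockout ovaries, against 881, 868, 700 and 609 in control ovaries. Its E14.5 log2 change was 1.01 ± 0.65, and 0.03 ± 0.51 without knockout replicate 2.

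Of the remaining 9 elastic fibre genes tested, log2 changes were between -0.14 (Emilin1) and 0.40 (Mfap4) at E14.5 and between -0.23 (Fbln5) and 0.43 (Mfap2) at E16.5, with 0 past the threshold. Ltbp1, a latent TGF-beta binding protein of microfibrils, read 3084, 3005 and 2825 in E14.5 knockout ovaries, against 2195, 2503 and 2299 in control ovaries. That separation was not seen at E16.5, where knockout ovaries had 3016 to 4113 and control ovaries 3177 to 3812. For Fbn2 (fibrillin-2) the log2 change was 0.18 ± 0.14 at the earlier stage and -0.06 ± 0.12 at the later one. Over the 13 tested genes of the class the E14.5 median was 0.35 and the E16.5 median 0.13.

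Among the adhesive glycoproteins, 0 of 7 passed at either stage, and Postn and Tnc had the largest changes. Postn (periostin) is a secreted protein of stromal cells that binds collagen and fibronectin. It read 4691, 4823 and 1934 in E14.5 knockout ovaries, against 3050, 1423 and 1089 in control ovaries. At E16.5 Postn read 4504, 1946, 2008 and 1181 in knockout ovaries, against 1045, 1242, 811 and 771 in control ovaries. The groups overlapped at both stages, at E14.5 through the array labelled control replicate 1 and at E16.5 through knockout replicate 4. The log2 changes were 1.06 ± 0.43 (limma adjusted p = 0.495) and 1.16 ± 0.37 (limma adjusted p = 0.122).

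Tnc (tenascin-C), a large protein of embryonic mesenchyme, read 403, 1097 and 500 in E14.5 knockout ovaries, against 254, 247 and 345 in control ovaries, with no overlap. At E16.5 it read 1733, 669, 448 and 557 in knockout ovaries, against 464, 663, 498 and 402 in control ovaries, and apart from knockout replicate 1 the arrays were intermixed. The log2 changes were 1.08 ± 0.39 (limma adjusted p = 0.424) and 0.55 ± 0.34 (limma adjusted p = 0.409). Fn1 (fibronectin), Sparc, Matn2, Thbs1 and Thbs2 had changes of -0.12 to 0.30 at E14.5 and of -0.33 (Thbs2) to 0.26 (Matn2) at E16.5. On the other Thbs1 probe set every E16.5 knockout array lay below every control, with a log2 change of -0.76 ± 0.20 that did not pass over all probe sets (limma adjusted p = 0.0774), while the Thbs1 probe set used in the gene test, the brighter over all 14 arrays, had -0.09 ± 0.26.

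In the basement membrane class, Hspg2 rose at E16.5 and 0 of the other 4 genes passed. Perlecan, the product of Hspg2, is a heparan sulphate proteoglycan that links laminin and collagen networks and binds growth factors. The brightest probe set read 1568, 1062, 1236 and 1657 in E16.5 knockout ovaries, against 978, 836, 963 and 852 in E16.5 control ovaries. All knockouts were above all controls, and the log2 change was 0.58 ± 0.14 (SE, n = 4 each, limma adjusted p = 0.0456), or 0.51 ± 0.15 without replicate 1 and 0.48 ± 0.14 without replicate 4 (limma adjusted p = 0.146 and 0.131). The other Hspg2 probe set also had no overlap at E16.5, with a log2 change of 1.13 ± 0.27 (limma adjusted p = 0.0491 when all probe sets were fitted). The 2 highest values belong to knockout replicates 1 and 4, the arrays with the high bioB control, and without both the change was 0.34 ± 0.14 (limma adjusted p = 0.511).

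At E14.5 Hspg2 read 327, 371 and 341 in knockout ovaries, against 336, 370 and 397 in control ovaries. The arrays were intermixed and the log2 change was -0.08 ± 0.16. The knockout effect on Hspg2 at E16.5 exceeded that at E14.5 by 0.66 ± 0.21 on the log2 scale, which did not pass over all genes (limma unadjusted p = 0.00583, adjusted p = 0.500).

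Nid2 (nidogen-2), which connects laminin to type IV collagen, read 1048, 2250 and 1371 in E14.5 knockout ovaries, against 1233, 1001 and 915 in control ovaries. At E16.5 Nid2 read 2233, 1118, 1349 and 929 in knockout ovaries, against 1168, 1163, 1032 and 973 in control ovaries. The groups overlapped at both stages, and the log2 changes were 0.50 ± 0.27 (limma adjusted p = 0.641) and 0.30 ± 0.23 (limma adjusted p = 0.531). Without the highest knockout array of the stage they were 0.20 ± 0.26 at E14.5 and 0.050 ± 0.20 at E16.5. The laminin chains Lamb1 and Lamc1 had E14.5 changes of 0.08 and 0.44 and E16.5 changes of -0.11 and 0.17, and Nid1 had 0.16 and 0.27. The probe sets of both laminin chains differed in sign at E16.5. They had -0.11 to 0.17 over 3 probe sets of Lamb1 and -0.28 to 0.17 over 2 of Lamc1. The Lamc1 probe set with -0.28 read 2199 ± 69.4 in E16.5 knockout ovaries and 2680 ± 199 in E16.5 control ovaries (SD, n = 4 each).

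Of the proteases and inhibitors, Timp1 rose at E16.5 and the enzymes did not pass at either stage. Timp1 encodes an inhibitor of matrix metalloproteinases. It read 1546, 1091, 1131 and 1324 in E16.5 knockout ovaries, against 941, 745, 835 and 899 in E16.5 control ovaries. Each knockout array was above each control, and the log2 change was 0.56 ± 0.13 (SE, n = 4 each, limma adjusted p = 0.0359). At E14.5 Timp1 read 1032, 1267 and 1051 in knockout ovaries, against 899, 841 and 825 in control ovaries. That stage had no overlap either, with a log2 change of 0.37 ± 0.14 that did not pass (limma adjusted p = 0.463). Without E16.5 knockout replicate 1 the E16.5 change was 0.46 ± 0.12 (limma adjusted p = 0.121), and without knockout replicate 4 it was 0.53 ± 0.14 (limma adjusted p = 0.0935).

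Adamts5, which cleaves versican and related proteoglycans, had the largest E14.5 change of this class. It read 264, 435 and 229 in E14.5 knockout ovaries, against 253, 181 and 113 in control ovaries, and the array labelled control replicate 1 lay within the knockout range. Its log2 change was 0.73 ± 0.29 at E14.5 (limma adjusted p = 0.482). At E16.5 Adamts5 read 274, 177, 257 and 156 in knockout ovaries, against 170, 218, 187 and 147 in control ovaries, with overlap and a change of 0.22 ± 0.25. Timp3, a matrix-bound inhibitor, read 2402, 3121 and 2439 in E14.5 knockout ovaries, against 2482, 1451 and 1157 in control ovaries. The high control value was again the array labelled control replicate 1, and without it Timp3 passed, with a change of 1.01 ± 0.17 (limma adjusted p = 0.0245), against 0.70 ± 0.21 (limma adjusted p = 0.320) with it. The gelatinase Mmp2, the membrane-bound Mmp14, Adamts1 and Timp2 had changes of 0.03 to 0.34 at E14.5 and of -0.13 to 0.32 at E16.5.

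The positive changes of the members were unevenly shared among the knockout arrays. E14.5 knockout replicate 2 was the highest of the 6 arrays of its stage for 36 of 41 members, against 28.4% of all genes. E16.5 knockout replicate 1 was the highest of 8 for 24 of 41 members, against 19.9% of all genes. E16.5 knockout replicate 4, the other array with a high bioB control, was the highest for 6 members, against 24% of all genes. The median difference of the members from the control mean was 0.22, 0.84 and 0.15 in the E14.5 knockout arrays and 0.57, 0.08, 0.32 and -0.0019 in the E16.5 knockout arrays. The standard deviation over knockout arrays exceeded that over control arrays for 30 of 41 members at E14.5 (60.8% of all genes) and for 40 of 41 at E16.5 (67.2% of all genes).

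The same members were far up on the array that stood apart at each stage. On E14.5 knockout replicate 2, 17 members were more than 2-fold over the control mean, against 2.51% of all genes, and on replicates 1 and 3 there were 3 and 0, against 1.6% and 0.588% of all genes. On E16.5 knockout replicate 1 there were 11 such members, against 3.13% of all genes, and on replicates 2, 3 and 4 there were 4, 3 and 2, against 0.734%, 1.02% and 2.88% of all genes. All 11 members on that E16.5 array were among the 17 on the E14.5 array, which is 64.7% of the 17 and 100% of the 11. Over all genes, 90 were shared between 311 on the E14.5 array and 388 on the E16.5 array, which is 28.9% and 23.2% of them. They were Dpt, Aspn, Ogn, Efemp1, Fbln2, Fbln5, Eln, Lox, Postn, Tnc and Nid2. On E16.5 knockout replicate 4, Lum read 948 and Ogn 257, below the 1875 to 2780 and 473 to 718 of the controls. The map of differences by array shows these columns.

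**Figure D3:**
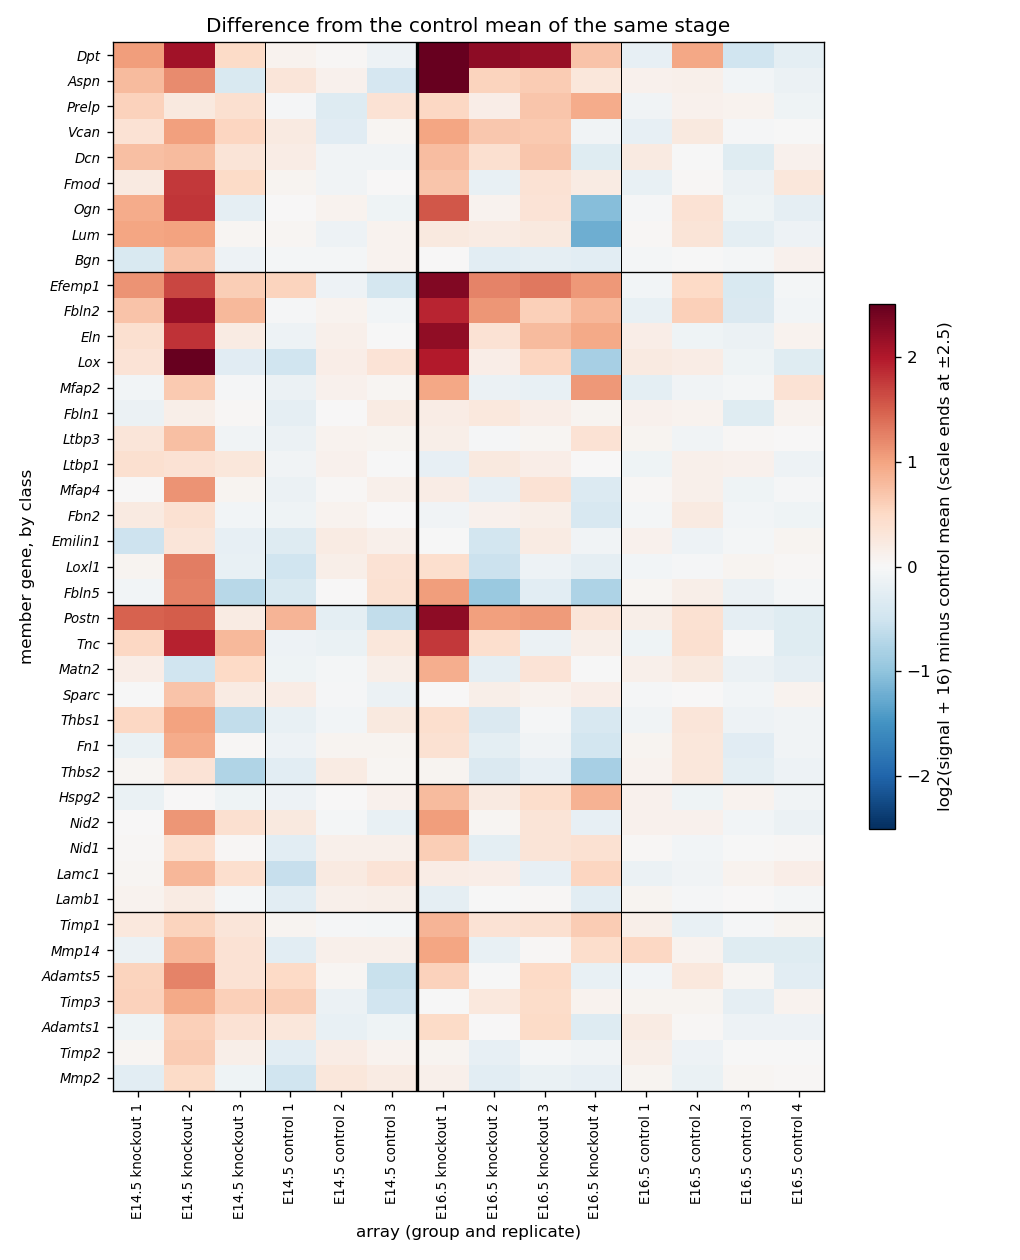
Difference of log2(signal + 16) from the mean of the control arrays of the same stage, for each of the 41 members tested (rows, by class) on each of the 14 arrays (columns, knockout left of control at each stage). Red is above and blue below the control mean, and the colour scale is clipped at its ends; the columns of E14.5 knockout replicate 2 and E16.5 knockout replicate 1 are the reddest, with medians of 0.84 and 0.57.

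Leaving out E14.5 knockout replicate 2 left 30 of 41 members with a positive E14.5 change and a median of 0.13. Without the array labelled E14.5 control replicate 1, 34 were positive, with a median of 0.33. Leaving out E16.5 knockout replicate 1 left 26 positive E16.5 changes, a median of 0.13 and 0 genes past the threshold. The controls also mattered for the count at E16.5, which was 1, 2, 0 and 1 without control replicates 1, 2, 3 and 4. Efemp1 was the member called without control replicate 1 and without control replicate 4, and Dpt and Efemp1 were those called without control replicate 2. Dpt, Efemp1 and Vcan were called without knockout replicate 4, and Eln joined the 4 genes without knockout replicate 2. The E14.5 arrays share the estimate of spread, and without control replicate 2 of that stage Hspg2 and Timp1 were lost, without control replicate 3 or knockout replicate 2 Hspg2 was lost, and in the last case Fbln2 was gained.

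The knockout effect was not shown to differ between stages for any member. By limma, 0 of 41 members and 0% of all genes passed the test of the difference, and Hspg2 was the only member with an unadjusted p under 0.05, against 8.91% of all genes. Changes were positive at both stages for 28 members (68.3%, against 35% of all genes), at E14.5 only for 10, at E16.5 only for 1 (Hspg2) and negative at both for 2. The 2 negative at both stages were Emilin1 and Thbs2. Those counts describe signs and do not rest on a test of each gene.

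Further genes of the same classes, not among the 45, were taken from a list of 95, of which 60 were tested. At E16.5, 3 of them rose in knockout ovaries and 0 fell, against 0.967% of all genes called higher, and 19 had an unadjusted p under 0.05, against 18.3% of all genes. At E14.5 0 passed by limma, with 14 at an unadjusted p under 0.05, against 8.55% of all genes. Tnxb, an adhesive protein of connective tissue, had 291 ± 47.3 in E16.5 knockout ovaries and 144 ± 21.0 in control ovaries (SD, n = 4 each; log2 change 0.94 ± 0.16, limma adjusted p = 0.00841). Ecm1, a secreted matrix glycoprotein, had 806 ± 186 in knockout ovaries and 421 ± 97.9 in control ovaries (log2 change 0.92 ± 0.20, limma adjusted p = 0.0252). Htra1, a secreted serine protease, had 4808 ± 903 in knockout ovaries and 2350 ± 306 in control ovaries (log2 change 1.02 ± 0.19, limma adjusted p = 0.0136). The median over the 60 genes was 0.16 at E14.5 and 0.15 at E16.5.

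Markers of several cell types also differed between knockout and control ovaries, some higher and some lower. Of 7 surface epithelium markers, 5 had all knockout arrays above all controls at each stage, against 7.84% of all genes at E14.5 and 6.22% at E16.5. At E16.5, 2 of the 7 passed, Krt19 (1.24 ± 0.25, limma adjusted p = 0.0173) and Upk1b (1.01 ± 0.24, limma adjusted p = 0.0438). The summed signal of the 7 was 13043 to 16201 in knockout ovaries and 11924 to 12805 in control ovaries at E14.5. At E16.5 it was 11681 to 15436 in knockout ovaries and 9261 to 10669 in control ovaries. The highest sum at E16.5 was that of knockout replicate 1. Of 6 interstitial markers, 2 fell at E16.5, Pdgfra (-1.25 ± 0.19, limma adjusted p = 0.00457) and Wnt5a (-1.34 ± 0.20, limma adjusted p = 0.00442). The 6 include Nr2f2, the deleted gene, which read 2053 to 3359 in E16.5 knockout ovaries and 3819 to 4950 in control ovaries. All E16.5 knockout arrays lay below all controls for 4 of the 6, Nr2f2 among them, against 4.22% of all genes. The E16.5 interstitial sum was 6943 to 9103 in knockout ovaries against 12484 to 13742 in control ovaries. With Nr2f2 in it, the sum is not independent of the deletion. The E14.5 interstitial sum was 6285 to 7896 in knockout ovaries and 6550 to 11062 in control ovaries, with the lowest control value on the array labelled control replicate 1.

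Of 5 smooth muscle markers, 1 rose at E16.5, Des (1.17 ± 0.25, limma adjusted p = 0.0292). The E16.5 median log2 change of the 5 was 0.03, against 0.05 over all genes. All E16.5 knockout arrays lay above all controls for 2 and below for 1, against 6.22% and 4.22% of all genes. The summed signal of the 5 was 5835, 8657 and 5618 in E14.5 knockout ovaries, against 5120, 4811 and 4879 in control ovaries. At E16.5 the sum was 9777, 7897, 8235 and 6862 in knockout ovaries, against 8460, 7997, 8516 and 8096 in control ovaries. Its highest values fell on the arrays that stood apart for the matrix genes. Of 8 macrophage markers, C1qb rose at E16.5 (0.82 ± 0.20, limma adjusted p = 0.0480), and 4 had all E16.5 knockout arrays above all controls, against 6.22% of all genes. The macrophage sum at E16.5 was 3079 to 6730 in knockout ovaries and 2845 to 3272 in control ovaries. Of 3 adrenal cortex markers tested, Hao2 and Mc2r rose at E16.5 and the sum was 746 to 1063 in knockout ovaries against 255 to 409 in control ovaries.

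At E14.5, 0 members of any marker list passed by limma. The counts of markers at an unadjusted p under 0.05 at this stage stand against 8.55% of all genes. All 3 adrenal markers tested had an unadjusted p under 0.05 and a positive change (median 0.71), with sums of 565 to 869 in E14.5 knockout ovaries and 270 to 534 in control ovaries. For germ cell markers 3 of 6 had an unadjusted p under 0.05, all with a negative change, and their sum was 45761, 38918 and 52352 in E14.5 knockout ovaries, against 54639, 49106 and 57614 in control ovaries, with the lowest value on knockout replicate 2. For mesonephric markers 2 of 6 had an unadjusted p under 0.05, both positive, and the sum was 4649 to 5218 in knockout ovaries and 4154 to 5965 in control ovaries. The macrophage sum was 1626 to 2534 in E14.5 knockout ovaries and 1564 to 2027 in control ovaries, with 0 of 8 markers at an unadjusted p under 0.05. The same E14.5 count was 3 of 6 interstitial, 3 of 7 surface epithelium and 2 of 5 smooth muscle markers. It was 1 of 3 for the cartilage and tendon and for the neural and glial lists, and 0 for the pre-granulosa, endothelial and red cell lists. Changes were positive for 1 of 6 interstitial, 6 of 7 surface epithelium and 5 of 5 smooth muscle markers, against 55.3% of all genes. At E16.5 none of the pre-granulosa (8), germ cell (6), mesonephric (6), cartilage and tendon (3) or red cell (4) markers passed by limma, with 3, 0, 4, 0 and 1 at an unadjusted p under 0.05, against 18.3% of all genes. The pre-granulosa sum was 15742 to 18996 in E16.5 knockout ovaries and 19072 to 20846 in control ovaries, without overlap. The sums of the germ cell, mesonephric, cartilage and tendon, and red cell lists overlapped between the E16.5 groups. The mesonephric median at E16.5 was 0.73, with 4 of 6 changes positive, against 58.9% of all genes. For 2 of the 6 all E16.5 knockout arrays lay above all controls, against 6.22% of all genes. Of 8 endothelial markers, Plvap rose (1.18 ± 0.21, limma adjusted p = 0.0111) and Tek fell (-0.68 ± 0.15, limma adjusted p = 0.0255) at E16.5, and the sum was 4696 to 6044 in knockout ovaries, with the highest on replicate 1, and 4058 to 4945 in control ovaries. Of 3 neural and glial markers tested, S100b rose at E16.5 (1.04 ± 0.22, limma adjusted p = 0.0245). Another of the 3 had a larger log2 change of opposite sign, -1.26, which did not pass. Its knockout signals were lower than its control signals, without overlap. The sum of the 3 was 256 to 452 in E16.5 knockout ovaries and 414 to 503 in control ovaries. Among the defining markers, Matn1 of cartilage was below the filter on every array, with at most 35.3. The part of these cell types in the matrix changes was not tested.

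In control ovaries, E16.5 was set against E14.5 to show how the matrix genes behave without the deletion. Of 41 members, 12 were higher at E16.5 (29.3%, against 28.5% of all genes) and 4 were lower, against 35.9% of all genes, with a median log2 change of 0.35 over the members and -0.09 over all genes. Called genes made up 64.4% of all genes, and 67.8% had an unadjusted p under 0.05, against 17 members (41.5%). Positive changes were seen for 28 members (68.3%, against 46.4% of all genes), and all E16.5 arrays lay above all E14.5 arrays for 16 members (39%, against 30.1% of all genes) and below for 3, against 37.4% of all genes. Mfap4, a microfibril-associated glycoprotein, read 2803, 2999, 2549 and 2718 at E16.5, against 499, 566 and 606 at E14.5 (log2 change 2.28 ± 0.22, limma adjusted p = 8.8e-08). Lamc1 (1.87 ± 0.22), Bgn (1.47 ± 0.18), Eln (1.38 ± 0.36) and Loxl1 (1.36 ± 0.28) followed. Those lower at E16.5 were Fbln2 (-0.87 ± 0.33), Efemp1 (-0.74 ± 0.31), Emilin1 (-0.56 ± 0.19) and Nid1 (-0.42 ± 0.17). Of the proteases and inhibitors 0 of 7 passed. The plot of stage changes in controls orders the members within each class.

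**Figure D4:**
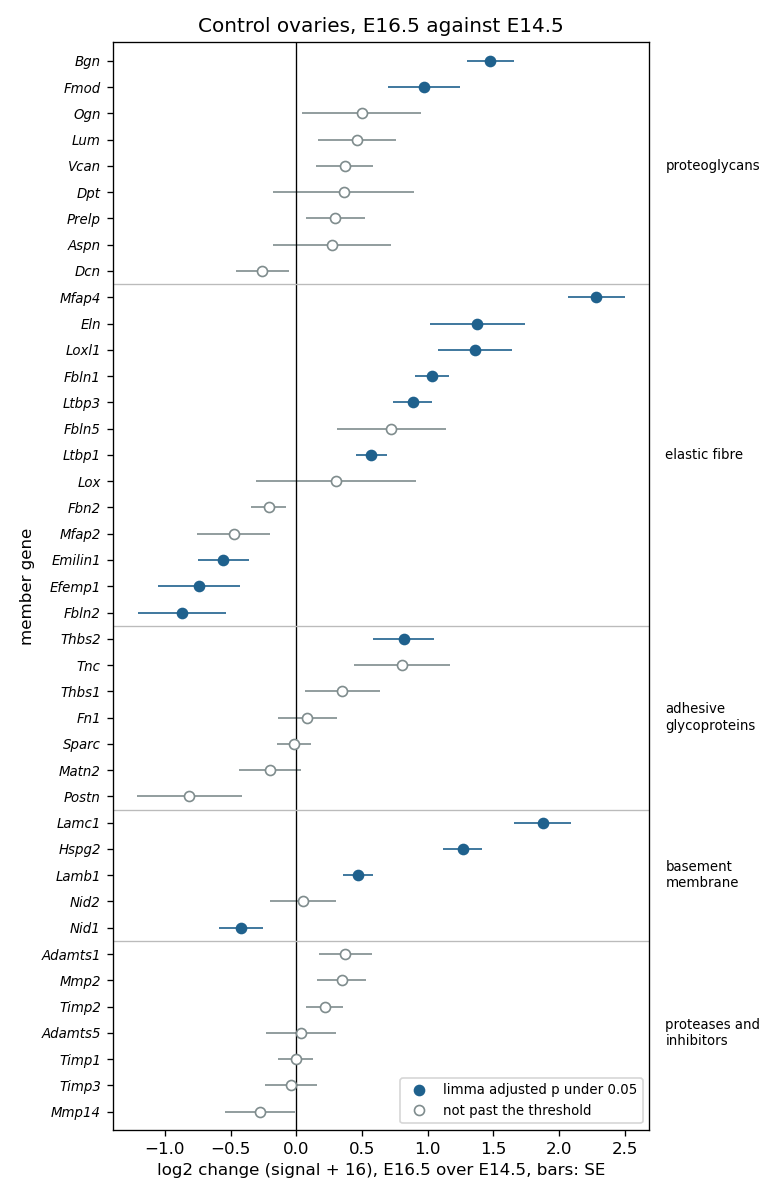
Log2 change of signal + 16 in E16.5 control ovaries (4 arrays) against E14.5 control ovaries (3 arrays) for each of the 41 members tested, grouped by class. Points are limma estimates, bars are standard errors and filled points mark the 16 genes with a limma adjusted p under 0.05, from Mfap4 at 2.28 to Fbln2 at -0.87.

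The stages also differed in array measures, so stage and array processing cannot be told apart. The Gapdh 3′ minus 5′ difference was 1.67 to 1.82 in E16.5 controls and -0.42 to -0.06 in E14.5 controls, and bioB was 11.87 to 12.12 in E16.5 controls and 10.24 to 10.31 in E14.5 controls on the log2 scale. Probe sets of a gene often disagreed in the sign of the stage change, for 17 of the 28 members with several probe sets above the filter, against 5 of 28 for the knockout comparison at E14.5 and 10 of 28 at E16.5. Hspg2 had 1.27 ± 0.15 on the brightest probe set and -2.42 ± 0.29 on the other. Nid1 had -0.42 ± 0.17 on the brightest and 3.23 ± 0.20 on the other. Those stage values therefore describe single probe sets.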

How the data were processed

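Whole fetal ovaries of 14 labelled samples were measured, 1 array each. Per the submitters' processing notes, the authors used MAS5 and Affymetrix Expression Console, whose versions were not stated; each deposited value is an intensity per probe set on a linear scale. RNA came from PicoPure columns and was amplified and labelled with a 3' IVT Express kit, per the labels' protocols. Each array had a trimmed mean of 500 (2% left out at each end), which removes global differences in RNA amount. The number of arrays limits the precision.

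Values were taken as log2(signal + 16), which understates the change of dim genes. Each gene was represented by the probe set with the highest mean whose annotation held that symbol alone (34945 of 45037 probe sets; 932 held several symbols and 9160 none). Genes under the 40th percentile of all probe sets, a mean signal of 62.0, were not tested. All 14 arrays entered 1 model with a mean for each of 4 groups, using limma (version 3.58.1, eBayes with the intensity trend on) under R 4.3.3, and tests were two-sided. Figures were drawn with matplotlib 3.10.9 and pandas 2.3.3 in Python 3.11.15.

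The members, the other gene lists and the tests were chosen with earlier results of these data known. Values of every array are given for members past the threshold and for the member with the largest change of each class and stage; Lox, Vcan, Dcn, Ltbp1, Timp3, Aspn, Prelp, Eln and Mfap4 were added as examples. Replicate numbers were checked as pairs: same-numbered knockout and control arrays had deviations that correlated at -0.0025, 0.16 and -0.048 at E14.5 and at 0.19, -0.0022, 0.058 and 0.43 at E16.5, so the numbers were not taken as pairs. Nothing in the labels says whether the replicates shared litters, so p-values measure the spread between these arrays. Steps were tested on simulated data. The alternatives varied pseudocount, scaling, filter, choice of probe set, spread model and threshold, left out arrays, or added a covariate or a replicate block.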

Additional observations from a re-analysis of the deposited data

Results flagged for a closer look

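Of 82 groups of 4 arrays tested over the members at E16.5, 8 held an array far from the other 3 by Dixon's criterion, and chance alone marks about 1 in 20 groups. In knockout ovaries, Lum was low on replicate 4, at 948, with 2560 to 2634 on the others. Bgn was high on knockout replicate 1, at 3529, with 2908 to 2990 on the others, and Aspn was high on the same array, at 1092, with 193 to 251 on the others. In control ovaries, Fbn2 was high on replicate 2, at 6414, with 5084 to 5285 on the others, and Thbs1 was high on that array, at 808, with 593 to 615 on the others. Mmp2 was low on control replicate 2, at 2077, with 2388 to 2451 on the others. Fbln1 was low on control replicate 3, at 1875, with 2464 to 2471 on the others, and Timp3 was low on that array, at 1339, with 1637 to 1656 on the others. None of these 8 genes was called at E16.5 between knockout and control ovaries by limma, and Aspn alone among them had an unadjusted p under 0.05.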

How the results depend on the processing

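The count of members past the threshold at E16.5 (4, all higher) was 3 or 4 with pseudocounts of 64 or 1, quantile normalization, either other filter, the mean of all probe sets or the probe set choice without cross-hybridizing sets, and 5 at a threshold of 0.1. It was 2 with median centring (Dpt and Efemp1), 1 without the trend in eBayes (Efemp1), 1 with the arrays of the stage alone (Efemp1), 1 without E16.5 knockout arrays 1 and 4 (Dpt), and 0 with bioB or with the Gapdh difference as a covariate. Added after seeing the data, leaving out E14.5 knockout array 2 and E16.5 knockout array 1 together gave 1 (Efemp1). With the replicate block it was 7 (Dpt, Efemp1, Eln, Fbln2, Hspg2, Postn and Timp1), and not every array correlated best with its own number. Leaving out each array in turn gave 0 to 5 members at E16.5, 0 to 1 at E14.5, 0 for the difference between stages and 13 to 18 for the stage comparison in controls, with medians of 0.13 to 0.28 at E16.5 and 0.13 to 0.53 at E14.5. With the Gapdh covariate the E16.5 member median was -0.0038 against 0.22, Tnc at E16.5 was -0.13, and the stage comparison in controls had 3 members past the threshold (Eln, Hspg2 and Lamc1) against 16, with 701 of all genes against 7993. Hspg2 at E14.5 was 0.070 on the probe set without cross-hybridization. The cause of these changes was not tested. Over all genes, calls at E16.5 were 176 in the fit reported, 279 with quantile normalization, 293 with the replicate block, 466 at a threshold of 0.1, 17 with bioB, 19 with the Gapdh difference and 16 without knockout arrays 1 and 4; at E14.5 they were 5, against 9 with the block or without a filter and 0 with a pseudocount of 64, quantile normalization, median centring, the 60th percentile filter, the probe sets without cross-hybridization, no trend, the stage alone or either covariate, and 23 without the array labelled E14.5 control replicate 1. With 3 or 4 arrays a group, a p that misses the threshold does not show that a gene is unaltered.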
